A study of Mus musculus with 12 samples.

Results

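Ly6a, Msln, Nlrp4a, Spon1, En1 and Slitrk2 are the 6 genes described here, of the 25759 genes listed in each of the 12 tables of the series. They were chosen by the size of their expression difference between uninduced Cdk8 mutant and uninduced wild-type (WT) mouse embryonic stem cells (ESCs), so that contrast is given for them as a description, with no test. Ly6a, Msln and Nlrp4a were the genes with higher values in the mutants, and Spon1, En1 and Slitrk2 those with lower values.

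All 12 RNA-seq libraries came from HATX3 ESCs, a polyclonal mouse line of haploid embryo origin whose cells had since become diploid. Every library, controls included, carried a Xist allele under a doxycycline-inducible promoter together with its transactivator in Rosa26. The WT group was the parental line in 3 numbered replicates (1, 2 and 3). The ΔCdk8 group was 3 mutant lines (8, 11 and 15), each a single clone in which a short stretch with the start codon in exon 1 had been deleted from both Cdk8 copies by CRISPR/Cas9. Each replicate or clone was profiled without induction and after 48 h of Xist expression, which gave 4 groups of 3. What the labels call WT replicates is not said to be separate cultures, so the spread between them may be technical, and the spread between mutants includes that between clones. Fewer cells expressing a gene and less RNA per cell cannot be told apart in such bulk libraries.

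The 6 genes share no pathway. Ly6a encodes Sca-1, a GPI-anchored surface protein of the Ly6 family that marks haematopoietic stem and progenitor cells and responds to interferon in other cell types. Msln encodes mesothelin, a GPI-anchored surface protein of mesothelial cells that is also found on several carcinomas, and Nlrp4a belongs to the NOD-like receptor family, whose Nlrp4 subgroup in the mouse is known mainly from oocytes and early embryos. Spon1 encodes F-spondin, a secreted matrix protein of the floor plate that acts in axon guidance. En1 encodes engrailed 1, a homeodomain transcription factor that patterns the midbrain-hindbrain boundary and the limb, and Slitrk2 encodes a leucine-rich repeat transmembrane protein of neurons that organises synapses. Cdk8 itself is the kinase of a module that associates with Mediator, the complex that links transcription factors to RNA polymerase II. Xist is the RNA that coats and silences an X chromosome in female cells.

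In mouse build GRCm38, Ly6a (ENSMUSG00000075602) spans 74994877 to 74998031 of chromosome 15, and Msln (ENSMUSG00000063011) spans 25748614 to 25754327 of chromosome 17, both on the minus strand. The other 4 genes lie on the plus strand. Nlrp4a (ENSMUSG00000040601) spans 26435113 to 26476142 of chromosome 7, and Spon1 (ENSMUSG00000038156) covers 113765998 to 114043370 of the same chromosome. En1 (ENSMUSG00000058665) spans 120602418 to 120607992 of chromosome 1. Slitrk2 (ENSMUSG00000036790) spans 66649318 to 66661393 of chromosome X, and is the only one of the 6 on the chromosome that carries the inducible Xist.

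Promoter sequences from RefSeq on GRCm38.p6 matched 3 of the 6 genes, Nlrp4a, En1 and Slitrk2, while Ly6a, Msln and Spon1 had no match. They are shown because En1 and Slitrk2 followed each other closely across libraries whereas Nlrp4a moved the other way, and so that the reader can see what lies in front of each gene. Each window ends at the last base before the first annotated base of the gene, on the plus strand, and capitals mark matches to the motifs searched.
Nlrp4a, chr7:26434863-26435112: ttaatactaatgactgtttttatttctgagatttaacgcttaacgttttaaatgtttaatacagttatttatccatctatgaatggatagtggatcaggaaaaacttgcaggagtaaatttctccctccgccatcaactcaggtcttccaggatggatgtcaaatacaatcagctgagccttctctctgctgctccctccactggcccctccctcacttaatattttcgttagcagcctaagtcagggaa
En1, chr1:120602237-120602417: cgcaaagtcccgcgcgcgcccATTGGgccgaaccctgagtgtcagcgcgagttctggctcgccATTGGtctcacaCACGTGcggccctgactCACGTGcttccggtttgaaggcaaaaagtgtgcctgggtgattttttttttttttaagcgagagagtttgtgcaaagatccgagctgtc
Slitrk2, chrX:66649068-66649317: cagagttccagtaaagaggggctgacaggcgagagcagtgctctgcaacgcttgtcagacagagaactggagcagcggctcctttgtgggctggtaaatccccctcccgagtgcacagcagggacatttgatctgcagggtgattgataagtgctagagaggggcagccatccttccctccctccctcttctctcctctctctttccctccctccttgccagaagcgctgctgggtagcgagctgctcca
The motifs searched on both strands were the TATA box with the letters TATAAA, the CCAAT box with the letters CCAAT, the E-box with the letters CACGTG, the RBPJ motif with the letters TGGGAA, the TCF/LEF motif with the letters CTTTGA and the STAT motif with the letters TTCNNNGAA. In En1 the capitals are 2 CCAAT boxes on the minus strand (ATTGG) and 2 E-boxes, none of them overlapping. CCAAT was found in 33.8% and CACGTG in 6.02% of the 32851 RefSeq promoter windows of 250 bases. The windows shown for Nlrp4a and Slitrk2 held none of the 6 motifs, which says only that these letters are not there. RefSeq holds a second, downstream start for each of these genes, inside the annotated gene, whose window is not shown. The 250 bases before the second Nlrp4a start held 1 CCAAT box and 1 match to the RBPJ letters (found in 21.6% of promoters), and those before the second Slitrk2 start held none. The first windows differed in base composition, with 19 CpG dinucleotides in the 250 bases before the RefSeq start of En1, 6 in those of Slitrk2 and 4 in those of Nlrp4a, beside a median of 6 over all promoters. At the second starts the count was 15 for Slitrk2 and 3 for Nlrp4a.

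The libraries held 22170087 to 60798578 gene reads each, and 92.7% to 94.1% of them mapped uniquely. All 16 ESC marker genes, Pou5f1, Sox2 and Nanog among them, were at 1 TPM or more in every library, where TPM is the exon read count per exon length scaled to the same total in each library. The 6 genes were assigned few ambiguous reads: 97.1% of Spon1 reads and all reads of the other genes mapped uniquely. Cdk8 mRNA was at 64.2, 69.4 and 74.2 TPM in uninduced WT replicates 1, 2 and 3 and at 34.4, 56.8 and 85.3 TPM in uninduced clones 8, 11 and 15, so clone 8 was below and clone 15 above all WT libraries, and the mRNA level does not check the labels. A small insertion, and residual transcript, were described for 1 of the clones. Markers of other cell types stood apart in some libraries. The 16 fibroblast genes summed to 100.2–204 TPM, but 11 of them were at 1 TPM or more in both libraries of clone 15, against 2 to 6 in the other libraries, with Acta2 at 64.3 and 57.4 TPM there and 0.369 to 20.5 TPM elsewhere. S100a4 of that list was higher in all uninduced clones. It was at 0, 0 and 0.146 TPM in uninduced WT and at 4.26, 1.50 and 7.11 TPM in uninduced clones 8, 11 and 15. After induction WT replicate 1, at 0.934 TPM, was above clone 11, at 0.559 TPM. Col3a1, Pdgfra, Dcn, Lum and Prrx1 were under 1 TPM everywhere. The 12 blood and endothelial genes summed to 9.81–25.9 TPM, with 2 to 6 of them at 1 TPM or more, Tek up to 13.6 TPM (induced WT replicate 1), and Ptprc, Spi1 and Runx1 under 1 TPM everywhere. Trophoblast genes summed to 97.5 and 87.0 TPM in uninduced and induced WT replicate 1 and to 21.0–29.1 TPM in the other WT libraries, beside 46.0–124 TPM in the clones, and primitive endoderm genes summed to 19.4–54.3 TPM in WT and 53.1–92.0 TPM in the clones. The part of these markers in the values of the 6 genes was not tested.

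Ly6a was nearly absent from WT cells and present in every mutant library. Uninduced WT replicates 1, 2 and 3 gave 0.134, 0.0591 and 0 TPM, on 2, 1 and 0 reads. Uninduced clones 8, 11 and 15 gave 4.21, 1.18 and 3.09 TPM, on 116, 26 and 60 reads. The groups did not overlap, and clone 11 was the lowest of the mutants. Pooled over libraries and scaled to their sizes, Ly6a reads were 57.6 times as frequent in the mutants, with an exact 95% counting interval of 19.4 to 281 that covers counting error only, since the WT value rests on 3 reads.

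Msln, the surface protein of mesothelium, had the most even values of the 6 genes among the mutants. It was at 10.5, 10.4 and 8.56 TPM in uninduced clones 8, 11 and 15, a mean of 9.82 ± 1.09 (SD, n = 3). Uninduced WT replicates 1, 2 and 3 were at 0.686, 0 and 0.0807 TPM. The mean was 38.4 times higher in the mutants, and WT replicate 1 held most of the WT signal, with 20 of 28 reads.

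Nlrp4a was at 0.767, 2.69 and 1.55 TPM in uninduced clones 8, 11 and 15. The 3 uninduced WT replicates were at 0.0678, 0.0300 and 0.0269 TPM, on 4, 2 and 3 reads. Here clone 11 was the highest and clone 8 the lowest of the mutants, the reverse of the order seen for Ly6a, and the mean was 40.1 times higher in the mutants.

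Among the genes with lower values in the mutants, En1 had the highest WT level. It was at 0.552, 9.61 and 5.98 TPM in uninduced WT replicates 1, 2 and 3 and at 0.0508, 0.376 and 0.213 TPM in uninduced clones 8, 11 and 15. WT replicate 1 stood well below the other WT libraries and only a little above clone 11. The mean in WT was 25.3 times that in the mutants.

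Spon1 was at 0.178, 1.28 and 2.63 TPM in uninduced WT replicates 1, 2 and 3. It was at 0.0129, 0.0633 and 0.0358 TPM in uninduced clones 8, 11 and 15, and the WT mean was 36.5 times higher. Again WT replicate 1 was the lowest of its group, but the groups did not overlap. Of the 14, 22 and 15 Spon1 reads of clones 8, 11 and 15, 78.6%, 45.5% and 60.0% fell in introns, against 7.65% to 32.4% in the WT replicates.

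Slitrk2 followed the same order. Uninduced WT replicates 1, 2 and 3 were at 0.0996, 1.17 and 1.50 TPM, and uninduced clones 8, 11 and 15 at 0.00550, 0.0882 and 0.0537 TPM. The WT mean was 18.8 times higher, and the distance between WT replicate 1 and clone 11 was small.

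**Figure D1:**
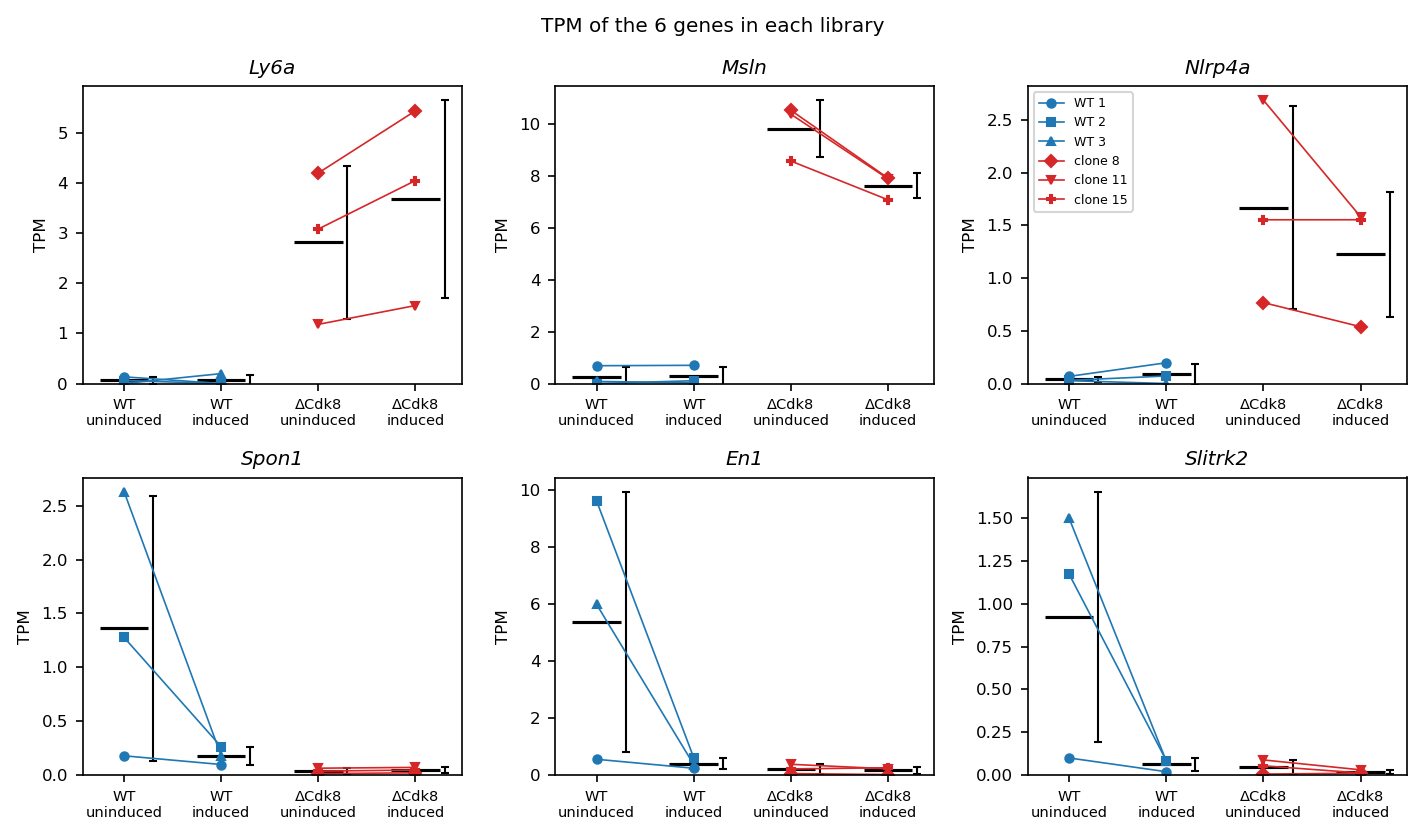
Expression of the 6 genes in TPM (linear axes from 0, a separate range for each gene) in every library. Points are libraries, lines join the uninduced and induced library of a WT replicate or clone, black bars are group means and vertical bars ± 1 SD (n = 3, cut at 0). Ly6a, Msln and Nlrp4a are near 0 in WT and present in the clones; Spon1, En1 and Slitrk2 are high in 2 of 3 uninduced WT replicates.

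On the log2 scale of edgeR, which fits total gene reads with TMM scaling, the uninduced difference of mutants over WT was 5.61 ± 0.75 (SE) for Nlrp4a, 5.40 ± 0.95 for Ly6a and 5.13 ± 1.00 for Msln. It was -4.82 ± 1.15 for En1, -4.40 ± 1.18 for Slitrk2 and -4.23 ± 0.86 for Spon1. Among 14646 genes fitted, Nlrp4a, Ly6a and Msln ranked 2, 4 and 6 from the highest, and En1, Slitrk2 and Spon1 ranked 2, 5 and 8 from the lowest, so they were not the complete set of extreme genes. Leaving out 1 library moved these differences by more than 1.5 times as ratios: between 4.55 and 6.75 for Msln, 4.62 and 6.46 for Ly6a, 4.89 and 6.08 for Nlrp4a, -5.73 and -4.15 for En1, -5.33 and -3.82 for Slitrk2, and -4.74 and -3.42 for Spon1. All 6 genes had groups that did not overlap in TPM; 16.3% of the fitted genes were higher in the mutants without overlap and 6.79% lower. These counts follow from the choice of the genes. Taking genes with a fold change of more than 2 whose adjusted p was under 0.01 as called, edgeR passed 0 of the 14646 genes (0.0% in either direction) in this contrast, with 2982 at an unadjusted p under 0.05, and DESeq2 passed 264 higher (1.8%) and 122 lower (0.833%).

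The induced libraries allow the same contrast to be measured again in RNA that was not used to choose the genes, although the clones were the same. In them the 3 genes with higher mutant values were again higher. Ly6a was at 5.45, 1.56 and 4.06 TPM in induced clones 8, 11 and 15 and at 0, 0 and 0.198 TPM in induced WT replicates 1, 2 and 3. Msln was at 7.91, 7.88 and 7.07 TPM in these clones and at 0.701, 0.107 and 0.0282 TPM in WT. Nlrp4a was at 0.538, 1.58 and 1.55 TPM in the clones and at 0.197, 0.0716 and 0 TPM in WT. For all 3 genes the lowest mutant library was above the highest WT library, as it was for 18.6% of the 14143 genes fitted, and the order of the clones was the one seen without induction for Ly6a, with clone 8 again lowest for Nlrp4a.

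On the log2 scale of edgeR the induced difference was 5.21 ± 0.99 (SE) for Ly6a, 4.33 ± 0.99 for Msln and 3.43 ± 1.09 for Nlrp4a, and in DESeq2, with the same filter, it was 5.33 ± 1.13, 4.33 ± 0.89 and 3.43 ± 1.05. No p is given for these 3 genes, because they had enough reads to be fitted only through the mutant libraries, the group in which they are high. Of all 14143 genes fitted, the quasi-likelihood test of edgeR, with p-values adjusted over all of them (Benjamini-Hochberg), called none (0.0% in either direction), with 3668 at an unadjusted p under 0.05, while the Wald test of DESeq2 called 3.83% higher and 1.98% lower. The Ly6a estimate rests on 4 WT reads, all in replicate 3, and the pooled read ratio was 46.5 with a 95% counting interval of 17.9 to 172. Leaving out WT replicate 1 raised Msln to 7.06 and Nlrp4a to 5.61 on the log2 scale, and leaving out WT replicate 3 lowered them to 3.75 and 2.81.

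The 3 genes with lower mutant values were low in both genotypes in the induced libraries. Spon1 was at 0.0976, 0.262 and 0.178 TPM in induced WT replicates 1, 2 and 3 and at 0.0205, 0.0708 and 0.0462 TPM in induced clones 8, 11 and 15, without overlap, as for 10.1% of fitted genes that were lower in the mutants. Its difference was -1.42 ± 0.60 in edgeR and -1.44 ± 0.75 in DESeq2. No p is given for Spon1 either, because only WT, the group in which it is high, had enough reads in every library. En1 was at 0.238, 0.605 and 0.363 TPM in induced WT replicates 1, 2 and 3 and at 0.0163, 0.218 and 0.256 TPM in the clones, and the groups overlapped. Slitrk2 was at 0.0193, 0.0842 and 0.0811 TPM in induced WT and at 0.0106, 0.0303 and 0.0119 TPM in the clones, again with overlap. Both genes had too few reads in these 6 libraries to be fitted, so they were not tested. The ratio of the WT mean to the mutant mean was 3.91 for Spon1, 2.46 for En1 and 3.50 for Slitrk2. These are not set against the uninduced ratios, which chose the genes. For Ly6a, Msln and Nlrp4a the ratio of the mutant mean to the WT mean was 55.9, 27.3 and 13.7 after induction.

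Induction in WT cells went with lower values of Spon1, En1 and Slitrk2 in each pair of libraries. These comparisons share the uninduced WT libraries with the choice of the genes, which picked Spon1, En1 and Slitrk2 for high values there, so lower values elsewhere were built into the choice and no test is given for them. From the uninduced to the induced library of the same number, En1 went from 0.552 to 0.238 TPM in WT replicate 1, from 9.61 to 0.605 TPM in replicate 2 and from 5.98 to 0.363 TPM in replicate 3. Induced Slitrk2 was 19.4%, 7.18% and 5.41% of its uninduced TPM in replicates 1, 2 and 3. Induced Spon1 was 54.7%, 20.5% and 6.77% of it. The 3 genes followed each other across libraries, so their pairs are not separate results.

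In edgeR the difference was -3.89 ± 1.05 for Slitrk2, -3.68 ± 1.05 for En1 and -2.73 ± 0.84 for Spon1, and with the replicate number as a block -3.77 ± 0.41, -3.39 ± 0.52 and -2.44 ± 0.47. En1 and Slitrk2, which could not be fitted among the induced libraries, enter this fit through the uninduced ones. Of all 14006 genes fitted, edgeR called 1.01% lower and 0.15% higher, the fit with the block 2.48% and 1.47%, and DESeq2 3.14% and 1.59%. Slitrk2 is X-linked, and X-linked genes as a whole were lower: the median of the 480 fitted ones was -1.55, and 463 of them were below 0. En1 and Spon1 are autosomal, where the median was 0.04. Ly6a, Msln and Nlrp4a had too few WT reads to be fitted.

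The comparison within the mutants likewise shares the uninduced clone libraries with the choice and is given as values. Ly6a was at 130%, 132% and 131% of its uninduced TPM in clones 8, 11 and 15, which is the narrowest spread of this ratio among the 6 genes. Msln was at 75.2%, 76.0% and 82.6%, and its uninduced and induced TPM did not overlap, as for 3.62% of fitted genes in the lower and 1.63% in the higher direction. Nlrp4a was at 70.2% and 58.8% in clones 8 and 11, and at 1.55 TPM in clone 15 both before and after. On the log2 scale of edgeR the differences were 0.41 ± 0.58 for Ly6a, -0.28 ± 0.28 for Msln, -0.43 ± 0.62 for Nlrp4a, 0.09 ± 0.57 for Spon1 and -0.63 ± 1.04 for En1. Of all 14832 genes fitted, edgeR called none (0.0% in either direction), with 392 at an unadjusted p under 0.05, the fit with the clone as a block called 0.135% higher and 1.27% lower, and DESeq2 called 0.243% lower. Slitrk2, with 1 to 13 reads a library, could not be fitted. Whether induction acted differently in the genotypes was not tested on these genes, because such a test holds the contrast that chose them.

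**Figure D2:**
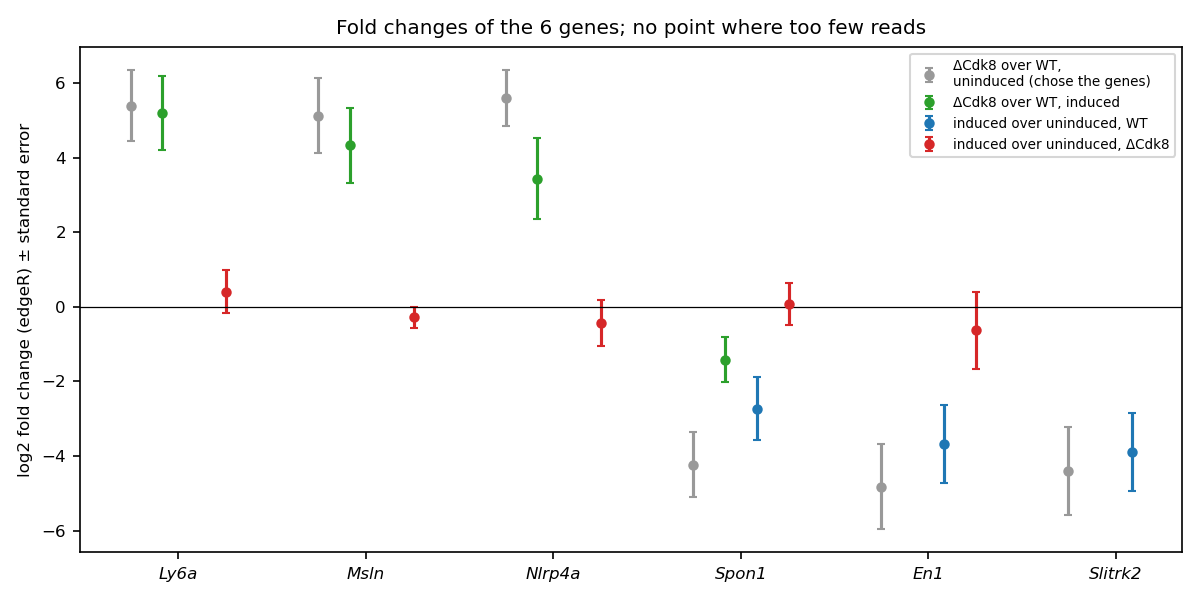
Differences of the 6 genes on the log2 scale of edgeR (vertical axis, ± SE, 3 libraries a group) in the 4 comparisons, in colours given in the key. The grey points chose the genes and are not tested. Ly6a, Msln and Nlrp4a are at 3.43 to 5.21 in the induced libraries, where they were fitted only through the mutants. A missing point means too few reads for a fit.

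Across the 12 libraries the genes fell into sets that differed in how closely they followed each other. In log2(TPM + 0.5), Pearson's r was 0.980 between Spon1 and Slitrk2, 0.974 between En1 and Slitrk2 and 0.944 between Spon1 and En1. It was 0.910 between Msln and Nlrp4a, 0.906 between Ly6a and Msln and 0.732 between Ly6a and Nlrp4a. These are descriptions over libraries of 4 groups, in which any genes that differ between groups correlate, and carry no test. Over all fitted genes, the genes most like Spon1 were St6gal2 (a sialyltransferase, r = 0.985) and Slitrk2. Those most like En1 were Slitrk2 and Spon1, and those most like Slitrk2 were Spon1 and Caln1 (a calcium-binding protein, r = 0.978).

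Those most like Ly6a were Atp8b2 (a phospholipid flippase, r = 0.982), Rhobtb2 (r = 0.981) and Ptgfrn (r = 0.979), all at 9 TPM or more in each group mean and so, unlike Ly6a, present in WT. Msln was most like Aox3 (an aldehyde oxidase, r = 0.992), Tekt1 (a ciliary tektin, r = 0.980) and Mavs (the adaptor of RNA sensing, r = 0.977). Aox3 was, like Msln, nearly absent from WT, with means of 0.0771 TPM uninduced and 0.0923 TPM induced against 1.34 and 1.14 TPM in the mutants. Nlrp4a was most like Cdh13 (T-cadherin, r = 0.977), Dnajc15 (r = 0.973) and Gpalpp1 (r = 0.962). Cdh13 had means of 0.0885 and 0.0327 TPM in WT and 1.33 and 1.32 TPM in the mutants.

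The neighbours of the 6 genes along the chromosome were read in the same contrasts. Taking the 2 nearest genes on each side with enough reads over the 12 libraries gave 24 neighbours, at distances from 0.284 to 2471 kb. In the uninduced contrast 22 were fitted, with a median difference of 0.15 and a range of -1.65 to 3.01 on the log2 scale, and edgeR called 0, with 5 at an unadjusted p under 0.05, while DESeq2 called Axl, Cyp2s1 and Haghl higher. Over all genes in that contrast 2982 of 14646 were at an unadjusted p under 0.05 and DESeq2 called 1.8% higher. In the induced contrast 20 were fitted, with a median of 0.51 and a range of -0.82 to 3.45, and edgeR again called 0, with 5 at an unadjusted p under 0.05. DESeq2 called Steap3, Cyp2s1, Fmr1 and Fmr1nb higher in the induced mutants, of which Fmr1 and Fmr1nb lie on the X chromosome, where the median of all genes was 0.83. Over all genes 3668 of 14143 were at an unadjusted p under 0.05 there and DESeq2 called 3.83% higher.

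The neighbour nearest to any of the 6 was Mslnl, the mesothelin-like gene that lies 0.284 kb from Msln. Its mean was 0.0769 TPM in uninduced and 0.119 TPM in induced WT, and 0.594 and 0.663 TPM in the mutants. The difference was 3.01 ± 1.03 without induction and 2.32 ± 1.15 with it, and edgeR called Mslnl in neither. No p is given for it, since it was near 0 TPM in WT and had its reads mainly in the mutants. Ly6k, the neighbour of Ly6a 195 kb away in the same gene cluster, was at 0.0610 and 0.219 TPM in WT and 0.749 and 0.850 TPM in the mutants, too few reads to be fitted in these contrasts, while Ly6e, 35.0 kb away, was at 53.1 to 93.1 TPM in all 4 group means. Ly6h, 553 kb away, was lower in the mutants without induction, at 0.134 TPM against 0.407 TPM in WT (-1.65 ± 0.69). With induction its difference was -0.15 ± 0.94. Rras2, which lies 3.41 kb beyond Spon1, differed by 0.20 ± 0.26 without and 0.51 with induction. Slitrk4, a relative of Slitrk2 that lies 2372 kb from it, was at 0.231 TPM in uninduced WT and 0.172 TPM in uninduced mutants.

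**Figure D3:**
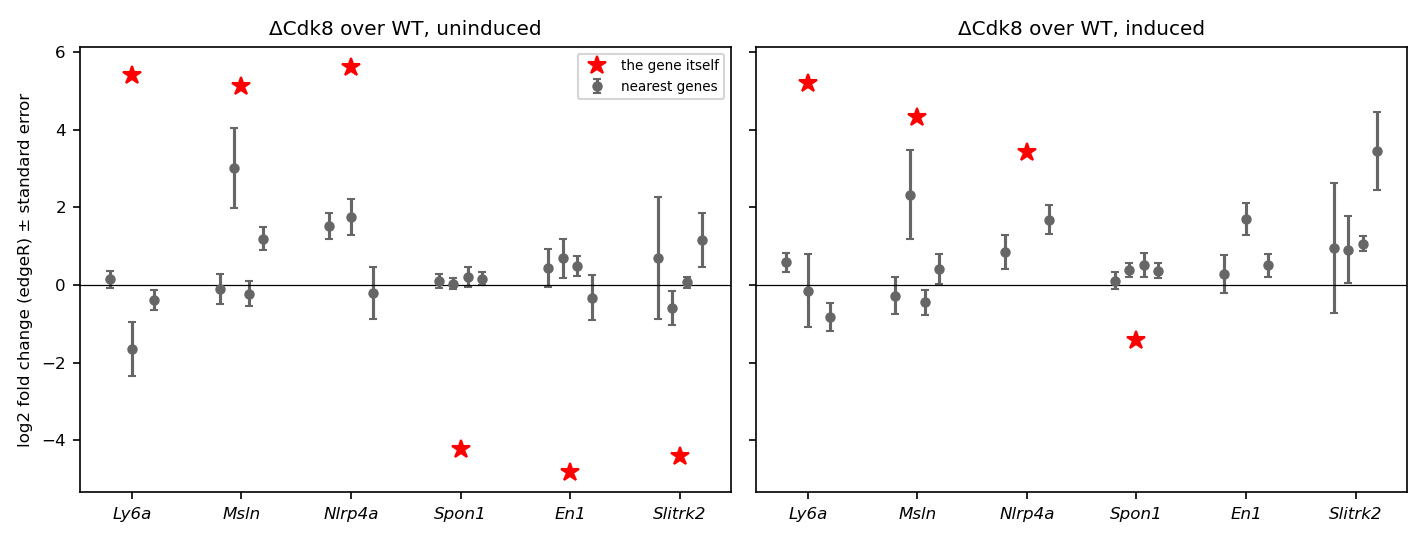
Differences of mutant over WT on the log2 scale of edgeR (vertical axis) for the 6 genes (stars) and for the 2 nearest genes with enough reads on each side, in chromosome order (grey, ± SE, 3 libraries a group), without and with induction. The neighbours range from -1.65 to 3.01 without and from -0.82 to 3.45 with induction, and the highest neighbour without induction is Mslnl.

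Relatives and pathway partners of the 6 genes were taken from lists, each without the gene itself, and counted in the induced contrast. Over all 14143 fitted genes there the median was 0.03, DESeq2 called 3.83% higher and 1.98% lower, and 3668 were at an unadjusted p under 0.05, against which the counts below are to be read. Of 28 other Ly6-domain genes, 13 were fitted and edgeR and DESeq2 called 0, with 6 at an unadjusted p under 0.05 and a median of 1.17. Ly6g5c (5.07 ± 0.98) and Ly6g6e (1.69 ± 0.53, edgeR adjusted p = 0.110) had the largest differences, and 16 members, Ly6c1 and Ly6d among them, were under 1 TPM in every library. No p is given for Ly6g5c, which was at means of 0.0743 TPM in induced WT and 2.56 TPM in induced mutants. DESeq2 gave it no adjusted p. Their summed level was 82.9–108 TPM in the WT libraries and 153–219 TPM in the clones, of which Ly6e gave 49.2 to 112 TPM.

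Of 29 interferon-responsive genes, a list set beside Ly6a, 18 were fitted, and edgeR called 0, with 9 at an unadjusted p under 0.05 and a median of 0.15. DESeq2 called 3 higher (Gbp2, Oas1a and H2-K1) and 2 lower, Tap1 among them. Gbp2, an interferon-induced GTPase, was at 0.0413 TPM in induced WT and 1.26 TPM in induced mutants, while Tap1, a peptide transporter of antigen presentation, was at 7.47 and 2.06 TPM.

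The 15 genes set beside Msln (its relatives, its partner Muc16 and markers of mesothelium) gave 10 fitted genes with a median of 1.22, of which edgeR and DESeq2 called 0, with 1 at an unadjusted p under 0.05. That gene was Upk3b, with a difference of 1.50 ± 0.42. It was at 0.464, 0.482 and 0.490 TPM in induced WT and at 1.76, 1.80 and 1.19 TPM in induced clones 8, 11 and 15. Without induction its groups overlapped, with WT replicate 1 at 1.19 TPM and clone 8 at 1.07 TPM. Muc16, which binds mesothelin, was under 1 TPM in every library, as were Upk1b and Gpm6a. The summed level was 132–243 TPM in WT and 102–271 TPM in clones 8 and 11, with 659 and 568 TPM in uninduced and induced clone 15. Krt18, a keratin of simple epithelia, was at 107, 35.7 and 320.4 TPM in uninduced clones 8, 11 and 15 and at 69.6, 17.4 and 27.3 TPM in uninduced WT, so the groups overlapped and clone 15 stood apart. Of 17 other Nlrp genes only 6 were fitted, with a median of 0.20, and 13 were under 1 TPM in every library, Nlrp2, Nlrp5 and Nlrp14 of the oocyte among them. Of 20 oocyte genes 11 were fitted, with a median of 0.15. Neither list had a gene called by edgeR or DESeq2, and 0 and 3 genes were at an unadjusted p under 0.05.

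Nlrp4a was also set beside 18 germline genes that DNA methylation is known to silence in somatic cells. Their sum was 102–110 TPM in uninduced and 61.1–112 TPM in induced WT libraries, and 147–315 and 139–296 TPM in the clones, where clone 11 was the lowest of the mutants in both, although it was the highest for Nlrp4a. In the induced contrast edgeR called 0 of the 18, with 14 at an unadjusted p under 0.05 and a median of 1.74, and DESeq2 called 8 higher and 0 lower, beside 3.83% and 1.98% of all genes. Among the 8 were Tex11, a meiosis gene on the X chromosome, where the median of all genes was 0.83 (4.13 ± 0.31, edgeR adjusted p = 0.0173), Smc1b, the meiotic cohesin subunit (4.01 ± 1.01, adjusted p = 0.0781, at 22.0 and 50.7 TPM in induced clones 8 and 15 but at 1.82 TPM in clone 11, below the 2.12 TPM of induced WT replicate 1), Mael, a piRNA pathway gene (2.28 ± 0.37, adjusted p = 0.0534) and Ddx4, the germ cell RNA helicase Vasa (1.60 ± 0.19, adjusted p = 0.0526). Tex13b was also among them, at means of 0.0123 TPM in induced WT and 1.12 TPM in induced mutants (3.97 ± 1.11). In the uninduced contrast DESeq2 called 2 of the 18 higher and 0 lower, beside 1.8% and 0.833% of all genes. There 11 were at an unadjusted p under 0.05 in edgeR, with a median of 1.14.

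For the 3 genes with lower mutant values, the lists of close relatives held few calls. Of 17 spondin relatives and receptors 13 were fitted with a median of 0.21, and DESeq2 called 2 higher, the F-spondin and reelin receptors Vldlr and Lrp8, which is the opposite direction from Spon1 itself. Of 18 genes around En1 in the midbrain-hindbrain programme 14 were fitted with a median of 0.15 and none was called by edgeR or DESeq2; its paralog En2 was at 0.352 to 3.68 TPM over all libraries, and Wnt1, Fgf8, Pax2 and Pax5 were under 1 TPM in every one. Of 24 Slitrk genes and synaptic partners 14 were fitted with a median of -0.03, and DESeq2 called only Flrt1, higher. In these 3 lists edgeR called 0, and 2 genes in each were at an unadjusted p under 0.05.

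A list in which WT replicate 1 was also the lowest uninduced WT library was that of primed epiblast genes, which ESCs switch on when they leave the naive state. Several other lists, the Wnt target, Slitrk and neural lists among them, shared this feature. The 12 epiblast genes summed to 907, 1395 and 1664 TPM in uninduced WT replicates 1, 2 and 3, to 651, 929 and 1125 TPM in induced ones, and to 469–612 TPM in the clones. Much of each sum was Dnmt3b, a DNA methyltransferase, at 548, 815 and 997 TPM in uninduced WT, 348, 507 and 598 TPM in induced WT and 261 to 309.6 TPM in the clones, and without it induced WT replicate 1 was below induced clone 11. Nodal, a signalling ligand of the list, was at 45.8 TPM in uninduced clone 11, above the 21.3 to 24.8 TPM of uninduced WT. The sum followed Spon1 and Slitrk2 in the order of the uninduced WT replicates but not En1, whose highest library was replicate 2. Lef1, a transcription factor of Wnt signalling, was at 31.4, 68.4 and 47.6 TPM in uninduced WT, at 1.80, 12.4 and 8.99 TPM in induced WT, at 1.64, 14.7 and 3.94 TPM in uninduced clones 8, 11 and 15 and at 0.243, 2.33 and 0.711 TPM in induced ones. Fgf5, a growth factor of the epiblast, was at 0.708, 5.90 and 9.04 TPM in uninduced WT and at 0.436, 1.36 and 1.48 TPM in induced WT. In the induced contrast edgeR called 0 of the 12, with 9 at an unadjusted p under 0.05 and a median of -1.17, and DESeq2 called 3 lower (Lef1, Zic2 and Sall2) and 0 higher. The uninduced contrast had a larger shift, with a median of -2.01 and 10 of the 12 at an unadjusted p under 0.05 in edgeR, which called 0. DESeq2 called 8 lower and 0 higher there, beside 0.833% and 1.8% of all genes. The ESC marker genes Tfcp2l1 and Nanog, picked after their values were seen, ran the other way. In uninduced WT replicates 1, 2 and 3 Tfcp2l1 was at 39.4, 16.9 and 10.01 TPM and Nanog at 157, 98.4 and 50.2 TPM. In uninduced clones 8, 11 and 15 Tfcp2l1 was at 91.9, 102 and 76.7 TPM and Nanog at 403, 321 and 192 TPM. Of the 16 ESC genes edgeR called 0 in either contrast. DESeq2 called 2 higher and 1 lower without induction, and 1 higher and 0 lower with it. The part of the epiblast or ESC marker genes in the values of En1, Spon1 and Slitrk2 was not tested.

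**Figure D4:**
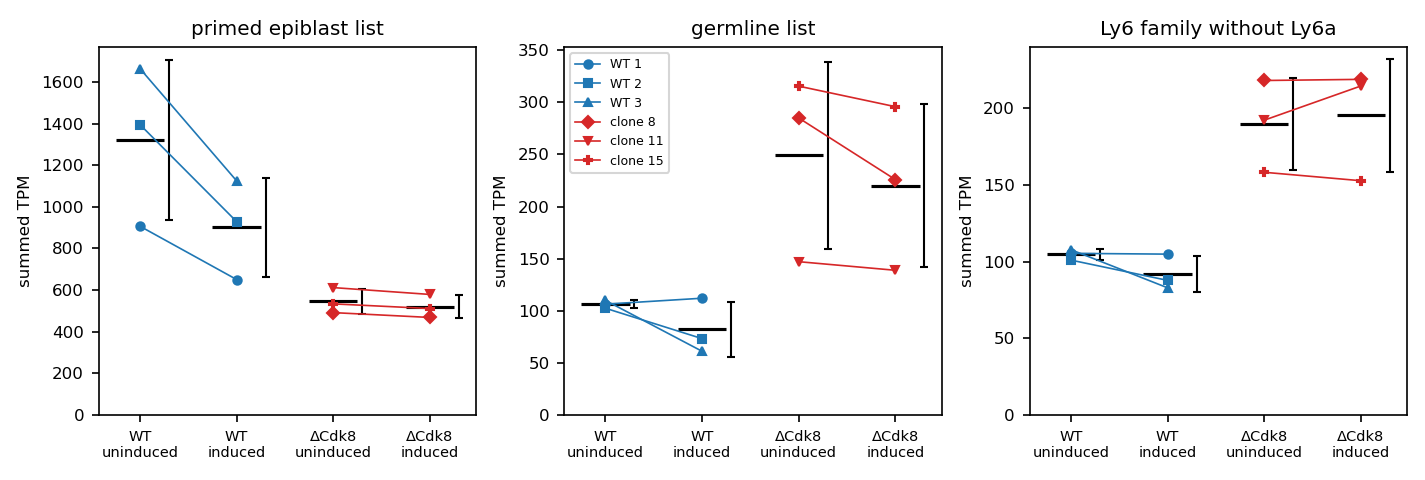
Summed TPM (linear axes from 0) of the 12 primed epiblast genes, the 18 germline genes and the 28 Ly6-domain genes without Ly6a in every library, with points, lines and bars (mean ± SD, n = 3) as for single genes. The primed epiblast sum is lowest in replicate 1 among the uninduced WT libraries and lies at 469–612 TPM in the clones, while the other sums are higher in the clones than in WT.

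Wnt and Notch target genes were listed because Cdk8 is known to act on both pathways. In the induced contrast 13 of 16 Wnt targets were fitted with a median of 0.05, and Lef1 was the only one that DESeq2 called; 7 of 10 Notch targets were fitted with a median of -0.72 and 0 called. The Wnt sum was 223, 341 and 324 TPM in uninduced WT replicates 1, 2 and 3, the order of En1, and 123, 287 and 140 TPM in uninduced clones 8, 11 and 15. Hes1, a Notch target, was at 9.43, 14.6 and 10.6 TPM in uninduced WT and at 24.3, 27.2 and 21.5 TPM in the uninduced clones without overlap. After induction it was at 15.5, 22.3 and 14.2 TPM in WT and at 26.7, 40.2 and 25.2 TPM in the clones, a difference of 0.69 ± 0.34 (edgeR, adjusted p = 0.232). edgeR called 0 in both lists, with 4 and 1 genes at an unadjusted p under 0.05. The lists of trophoblast, primitive endoderm, neural and mesoderm genes had at most 1 gene called by DESeq2 in either direction and 0 by edgeR. In the uninduced contrast 12 of the 16 fibroblast genes were fitted, with a median of 1.41 and a range of -0.68 to 5.61. DESeq2 called 2 of them higher and 0 lower, beside 1.8% and 0.833% of all genes, and edgeR called 0. Genes of the 2-cell-like state were near 0 in WT (0.190–3.28 TPM in sum) but at 12.6 and 27.3 TPM in uninduced clones 8 and 15 and at 9.11 and 17.9 TPM in the induced ones, while clone 11 was at 0.602 and 1.05 TPM. Only 1 gene of that list could be fitted in the induced contrast.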

How the data were processed

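RNA-seq was available for 12 libraries in 4 groups of 3. Per the study's methods, the authors aligned single-end reads of stranded poly(A) libraries to GRCm38 in CLC Genomics Workbench and deposited 1 table per library, replicates not pooled. The deposited counts are whole numbers of total, unique, exon and intron reads per gene. The deposited TPM values are exon reads per exon length scaled to the library, and RPKM, also deposited, was not used. The deposited fraction columns give unique and intron shares within a gene.

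Total gene reads were fitted with edgeR 4.0.16 (R 4.3.3), with TMM factors, filterByExpr (minimum count 10, total 15) and the quasi-likelihood test, 2 groups at a time as in the study, and called at a fold change above 2 and a Benjamini-Hochberg adjusted p under 0.01. DESeq2 1.42.0 was an alternative, as were other size factors, no filter, exon or unique reads, an adjusted p under 0.05 with no fold minimum, all 12 libraries together, a replicate block and leaving out each library. Scripts were tested on simulated data. Shares, ratios and intervals were computed in Python 3.11.15 with scipy 1.17.1. Counting intervals and depth (22170087 to 60798578 gene reads) cover counting error only. With 3 against 3 samples an exact permutation test cannot go below 0.1, so none was used.

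Same-numbered libraries deviated together over 15137 genes (r = 0.671, 0.581 and 0.539 in WT, 0.862, 0.900 and 0.835 in the clones), and clones are the same line, so the numbers were taken as pairs. The genes and lists were chosen with earlier results of these data known. Named are all 6 genes, some of their 2 nearest neighbours each side that passed the filter over all 12 libraries (those called by DESeq2, the nearest and relatives, picked after their values were seen), those of the 3 genes with the highest correlation to each that can be given (some results are not reported here), and of each list those with the largest induced differences or with the highest levels; Acta2, Tek, Hes1, Dnmt3b, Nodal, Fgf5, Ly6d, En2 and the genes named as low were named after their values were seen.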

Additional observations from a re-analysis of the deposited data

Results flagged for a closer look

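In exon TPM, the values of Spon1 lay on opposite sides of their uninduced level in the genotypes after induction. In WT its induced TPM was a mean of 0.273 of the uninduced value, with all 3 replicates lower, but the uninduced WT libraries also chose the gene. In the ΔCdk8 clones the mean ratio was 1.33, with all 3 clones higher, on 3 to 12 exon reads a library. In total gene reads the direction in the clones was not settled: the level was lower in clone 8 (0.223 to 0.189 CPM, total gene reads scaled to library size) and clone 11 (0.491 to 0.432) and higher in clone 15 (0.315 to 0.478), and the pooled ratio was 0.973 with a 95% counting interval of 0.627 to 1.50. The difference between genotypes was not tested.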

How the results depend on the processing

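Over the alternatives, the fitted differences of the 6 genes kept their direction in the uninduced, induced and WT induction comparisons. In the induced contrast edgeR called 0 genes in each direction; an adjusted p under 0.05 with no fold minimum gave 2 higher and 2 lower, no filter 2 and 2, all 12 libraries in 1 fit 110 and 35 and DESeq2 542 and 280; leaving out 1 library gave 0 to 16 higher and 0 to 38 lower, with the maxima without clone 11, and 0 of the 6 genes. Leaving out 1 library moved Ly6a between 4.65 and 8.86 on the log2 scale, the latter without induced WT replicate 3, when WT holds no read and the value is no bound. For Spon1 the induced difference lay between -1.74 and -1.05 when 1 library was left out. In WT induction edgeR called 21 higher and 141 lower; an adjusted p under 0.05 with no fold minimum gave 251 and 388, DESeq2 222 and 440, and the replicate block, which uses the pairing, 206 and 347; leaving out 1 library gave 0 to 20 and 0 to 104 and 0 of the 6 genes. Among the 6 genes, the calls were 2 by DESeq2 in the induced contrast and, in WT induction, 3 by DESeq2 and 1 with the replicate block; they are given as counts only and support nothing, since the filter kept these genes through the group where they are high or the uninduced WT libraries chose them. In ΔCdk8 induction the replicate block gave 20 higher and 188 lower where edgeR unpaired gave 0, and DESeq2 gave 36 lower; the block changed no other call of the 6 genes. In the uninduced contrast all 12 libraries in 1 fit gave 3 higher and 2 lower, DESeq2 264 and 122, and leaving out 1 library 0 to 1 and 0 to 2. The causes were not tested.

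Small differences in ΔCdk8 induction changed sign when 1 library was left out: Ly6a (-0.0053 without induced clone 8, up to 0.83), Nlrp4a (0.29) and En1 (0.25) without uninduced clone 11 (down to -0.80 and -1.10 otherwise), and Spon1 (up to 0.44, -0.06 without induced clone 11, -0.17 without induced clone 15, -0.15 without uninduced clone 8). These fits did not use the pairing, so each kept the partner of the library left out. With the clone as a block and all 6 libraries Ly6a was 0.41 ± 0.26. With exon reads the uninduced difference of Spon1 was -5.31. With a pseudocount of 0.1, the 3 most similar genes shared 1 with those given for Ly6a and for Msln and 2 for Spon1 and for En1. Depth limits En1 and Slitrk2 in induced cells, with 1 to 19 reads a library.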
